A study of Bos taurus with 6 samples.

Results

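The genes of replacement histone variants, 6 in all, were followed in single bovine morulae: H3F3A and H3F3B, which encode histone H3.3, H2AFZ and H2AFV, which encode the H2A.Z proteins, H2AFX, which encodes H2AX, and H2AFY, which encodes macroH2A1. They were taken by symbol, with earlier results of these data known. All 6 had 1 row with 1 symbol in every library, and all 6 were among the 7319 genes tested, out of 13185 genes kept. The first group held 3 MAT2A-inhibited morulae, cultured with 20 µM FIDAS-5 from 72 h after insemination (day 3, at 8 to 16 cells) to 144 h (day 6). FIDAS-5 inhibits MAT2A, the enzyme that makes S-adenosylmethionine, the methyl donor of DNA and histone methylation. The second group held 3 control morulae cultured over the same hours in 0.1% DMSO, the solvent of the inhibitor. Whether the treated embryos also received DMSO is not in the labels. All embryos were fertilised in vitro and cultured in the same semi-defined medium with bovine serum albumin under 5% oxygen. Each library came from the polyA RNA of 1 whole embryo, and its values are relative to the depth of the library. Neither the number of cells nor the amount of RNA per cell was therefore measured. Separate cultures are not stated for the embryos of a group, and each p-value measures only the spread between these libraries, which may in part be technical.

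Most histone genes are transcribed during DNA replication, and their mRNAs end in a stem-loop and carry no polyA tail. Replacement variant genes have introns in most cases, give polyadenylated mRNAs and are used throughout the cell cycle, which is why a polyA library captures them. H3.3 is placed on active genes and on chromatin that lost its nucleosomes, including paternal chromatin after fertilisation. H2A.Z sits beside promoters, H2AX is the substrate of the kinases that mark DNA breaks, and macroH2A1 carries a large non-histone domain and is enriched on silent chromatin such as the inactive X chromosome. In current RefSeq naming for cattle, H2AFX, H2AFZ, H2AFV, H2AFY and H3F3A are H2AX, H2AZ1, H2AZ2, MACROH2A1 and H3-3A. The symbol H3F3B did not match that table.

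Depth lay between 46500000 and 59900000 fragments per library. The pluripotency factor POU5F1 was at 319.3 ± 61.2 FPKM in MAT2A-inhibited morulae and 361.5 ± 61.9 FPKM in controls (SD, n = 3 each), and SOX2, another factor of early embryos, was at 48.7 ± 3.09 FPKM in MAT2A-inhibited embryos and 33.7 ± 7.12 FPKM in controls. Of the 8 listed markers of the early embryo, SOX2 was higher and NANOG and DPPA3 were lower in every treated embryo than in any control. Over all tested genes such a pattern held for 8.27% (higher) and 5.18% (lower). SOX2, NANOG and DPPA3 did not pass limma over all genes. FPKM is the number of fragments per kilobase of transcript, scaled by the depth of the library. MAT2A itself was at 71.7 ± 19.1 FPKM in MAT2A-inhibited morulae and 76.1 ± 2.74 FPKM in controls. Of 7319 genes, 3 passed limma at an adjusted p of 0.05, which is 0.041% of those tested. None of the 6 histone genes was among them. MAT2A-inhibited morulae 2 and 3 stand apart in having Y-linked transcripts, with summed Y-linked values of 57.3 and 116.4 FPKM against at most 0.193 FPKM in the other 4 embryos. For each of the 6 histone genes the log2 fold change is therefore also given without these libraries. For partner genes, sums, shares and ratios no such value is given.

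The genes of H3.3 were both lower in every MAT2A-inhibited morula than in any control, and H3F3B showed the larger gap. H3F3B (bosTau8, chromosome 19, 56453846 to 56456211 in control 1) had 2031, 1778 and 1357 FPKM in the MAT2A-inhibited embryos 1 to 3, compared with 3479, 4780 and 2142 FPKM in controls 1 to 3. The groups did not overlap, but control 3 lay close to the highest treated embryo and control 2 far above the rest. The means were 1722 ± 340.0 FPKM in MAT2A-inhibited morulae and 3467 ± 1319 FPKM in controls (SD, n = 3 each), a ratio of 0.497. The log2 fold change on the log2(FPKM + 1) scale was -0.95 ± 0.30 (SE), with a 95% interval from -1.65 to -0.25. It did not pass limma over all genes (adjusted p = 0.701, unadjusted p = 0.0142, two-sided), and 145 tested genes had a smaller p.

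H3F3A (chromosome 16, 29832591 to 29840790) encodes the same H3.3 protein as H3F3B in mammals. It measured 1648, 1296 and 1371 FPKM in MAT2A-inhibited morulae, against 1919, 1958 and 1760 FPKM in controls. The controls were close to each other, and all 3 treated embryos lay below the lowest of them. The means were 1438 ± 185.6 FPKM in MAT2A-inhibited morulae and 1879 ± 105.0 FPKM in controls, and the log2 fold change was -0.39 ± 0.15 (limma adjusted p = 0.746, unadjusted p = 0.0360). For both genes the exact two-sided permutation test of the 6 values gave p = 0.1, the smallest that 3 embryos against 3 can give.

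A pattern without overlap, with the treated group lower, was found for 379 of 7319 tested genes, or 5.18%. An unadjusted limma p below 0.05 was found for 6.64% of tested genes, with 3.7% higher and 2.94% lower in the treated group. H3F3A and H3F3B were the only 2 of the 6 histone genes to meet either criterion on the FPKM values. Cufflinks cannot fully separate a gene from its intronless copies, and H3F3A and H3F3B have such copies in mammals, so their levels are uncertain to that extent.

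Summed over both genes, H3.3 transcripts reached 3679, 3074 and 2728 FPKM in MAT2A-inhibited morulae and 5398, 6738 and 3902 FPKM in controls. The sums did not overlap, although the highest treated and the lowest control embryo were near each other. H3F3B gave 55.2%, 57.8% and 49.8% of the pair in the MAT2A-inhibited embryos and 64.4%, 70.9% and 54.9% in controls. The shares overlapped through control 3, whose H3F3B value was the lowest of its group. By FPKM, H3F3A was higher than H3F3B in MAT2A-inhibited morula 3 only. Read from the midpoints of the deposited confidence bounds, which are described further on, both readings differed. H3F3B then gave 61.30%, 57.9% and 56.3% of the pair in the MAT2A-inhibited embryos and 65.6%, 76.3% and 61.34% in controls, with no overlap by a narrow margin, and it was the higher gene in all 6 embryos.

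**Figure D1:**
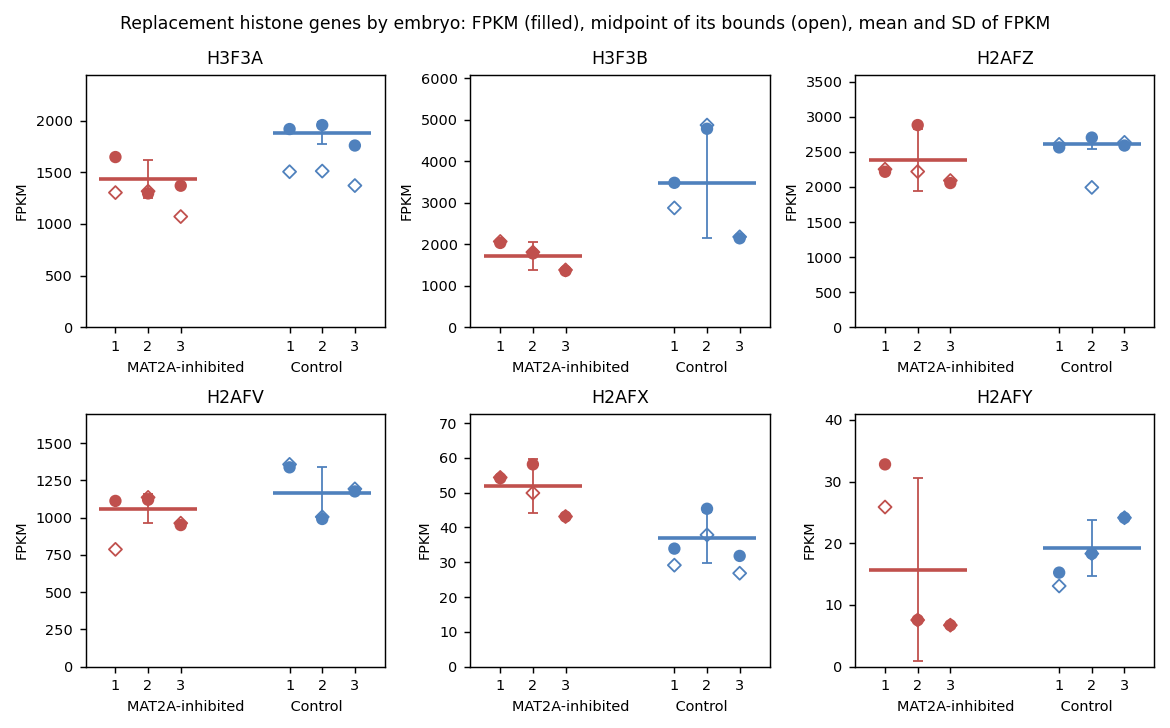
Expression of the 6 replacement histone genes in each embryo. Each panel has its own FPKM axis starting at 0, with MAT2A-inhibited morulae (red) left of controls (blue). Filled circles are the deposited FPKM, open diamonds the midpoint of the deposited confidence bounds, and lines with bars the mean and SD of FPKM (n = 3). The treated circles of H3F3A and H3F3B lie below all control circles, and H2AFY is lowest in MAT2A-inhibited morulae 2 and 3.

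The size of the H3F3B difference rested on which controls were used. Without controls 1 and 2 the log2 fold change was -0.33, and without control 2 alone it was -0.68. The 11 listed markers of cumulus cells, the companion cells of the oocyte, summed to 83.5, 63.9 and 43.5 FPKM in MAT2A-inhibited embryos 1 to 3 and to 129.6, 111.5 and 61.8 FPKM in controls 1 to 3. Controls 1 and 2 were thus the highest for this sum too. Most of each sum was SERPINE2, at 121.8, 92.9 and 53.9 FPKM in controls 1 to 3, so the order of the sums was that of SERPINE2. The listed markers did not move together. DCN and LUM were at most 0.739 FPKM outside control 2, where they reached 11.002 and 4.81 FPKM. VIM and CD44 were also highest in control 2, at 0.501 and 0.262 FPKM. COL1A2 was lowest in control 2, at 0.231 FPKM, against 4.29 and 4.06 FPKM in controls 1 and 3. HAS2 was at 0 in control 2, and TNFAIP6 was highest in control 3, at 1.42 FPKM. PTX3 was listed at 0 in every library. The part of these cells in the H3F3B values was not tested. The epithelial keratin KRT8 stood at 38.7, 109.5 and 229.9 FPKM in MAT2A-inhibited embryos and at 81.4, 4.49 and 400.5 FPKM in controls, lowest in control 2, where H3F3B was highest. The pluripotency factor NANOG stood at 1.16, 1.71 and 1.88 FPKM in MAT2A-inhibited embryos and at 4.58, 20.3 and 2.54 FPKM in controls, and DPPA3, a maternal factor, at 527.2, 453.5 and 574.5 FPKM in MAT2A-inhibited embryos and 856.4, 660.9 and 881.3 FPKM in controls. Among the listed markers of the early embryo only NANOG shared with H3F3B its order among the controls. SOX2, DPPA3, CDX2, GATA3, KRT8 and KRT18 were lowest in control 2. POU5F1 was highest there, but lower in control 1 than in control 3. The part of these markers in the H3F3B values was not tested. Without the 2 libraries with Y-linked transcripts, which leaves MAT2A-inhibited morula 1 against 3 controls, the log2 fold changes were -0.70 for H3F3B and -0.19 for H3F3A. MAT2A-inhibited morula 1 lay below all controls for both genes.

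The H2A.Z genes overlapped between groups. H2AFZ (chromosome 6, 26101819 to 26104493 in control 1) encodes the main H2A.Z protein, which mice need for early development. It measured 2216, 2882 and 2056 FPKM in MAT2A-inhibited morulae, against 2563, 2704 and 2590 FPKM in controls. The treated embryos lay on both sides of the controls. H2AFV (chromosome 4, 77389293 to 77401083) encodes a close relative of that protein and measured 1112, 1119 and 949.5 FPKM in MAT2A-inhibited morulae, against 1337, 990.4 and 1175 FPKM in controls. The groups overlapped for it as well. The log2 fold changes were -0.15 for H2AFZ, with a 95% interval from -0.54 to 0.24, and -0.13 for H2AFV, with an interval from -0.53 to 0.27 (limma adjusted p = 0.851 and 0.866). These intervals do not show that the levels were alike. Without the libraries with Y-linked transcripts the values were -0.24 and -0.060.

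By FPKM, H2AFZ gave 69.0 ± 2.76% of the pair in MAT2A-inhibited morulae and 69.2 ± 3.75% in controls (SD, n = 3 each). By the midpoints of the bounds its share was 69.6 ± 4.09% in MAT2A-inhibited morulae and 67.0 ± 1.61% in controls. By FPKM, the H2A.Z pair was at 0.905, 1.30 and 1.10 times the H3.3 pair in MAT2A-inhibited embryos and at 0.723, 0.548 and 0.965 times in controls. This ratio does not depend on scaling between libraries, but it does depend on which of the deposited values is read. The treated embryos were higher by mean, at 1.10 ± 0.199 against 0.745 ± 0.209 in controls, but MAT2A-inhibited morula 1 lay below control 3. By midpoints the overlap was wider, at 0.902, 1.07 and 1.246 times in MAT2A-inhibited embryos and 0.905, 0.470 and 1.08 times in controls.

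**Figure D2:**
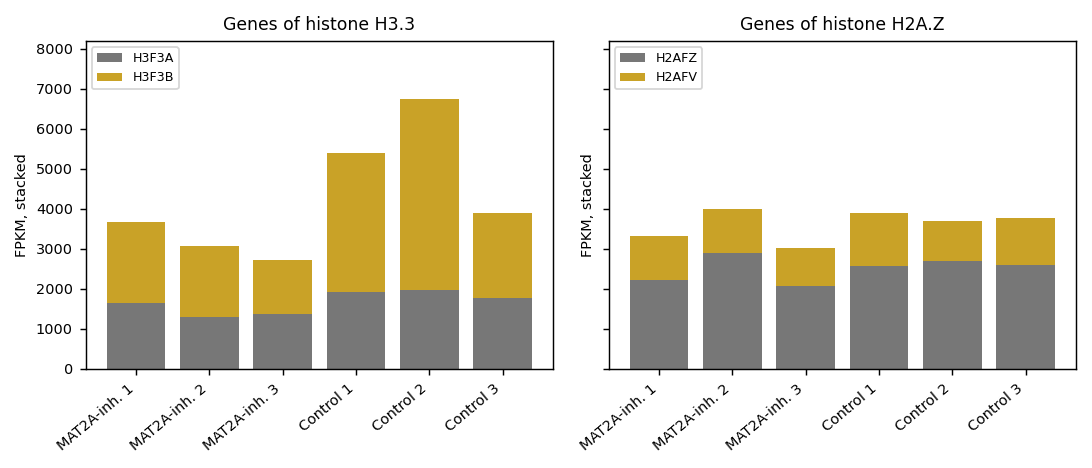
Stacked FPKM of the paired genes of H3.3 (left) and H2A.Z (right) in each embryo, on 1 axis starting at 0, with MAT2A-inhibited morulae left of controls. The H3.3 stacks reach 2728 to 3679 FPKM in MAT2A-inhibited morulae and 3902 to 6738 FPKM in controls, while the H2A.Z stacks overlap, at 3005 to 4001 FPKM in MAT2A-inhibited morulae and 3694 to 3900 FPKM in controls.

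H2AFX went the other way from the H3.3 genes. H2AX carries the serine that ATM, ATR and DNA-PK phosphorylate next to DNA breaks, and its gene gives both a polyadenylated and a stem-loop mRNA, of which a polyA library takes the first. The gene (chromosome 15, 30202572 to 30203886) measured 54.2, 58.2 and 43.1 FPKM in MAT2A-inhibited morulae, against 33.9, 45.4 and 31.8 FPKM in controls. Only control 2 and MAT2A-inhibited morula 3 overlapped. The means were 51.8 ± 7.78 FPKM in MAT2A-inhibited morulae and 37.0 ± 7.30 FPKM in controls, a ratio of 1.40. The log2 fold change was 0.48 ± 0.24, with an interval from -0.085 to 1.04 (limma adjusted p = 0.759, unadjusted p = 0.0854, exact permutation p = 0.2). Without the libraries with Y-linked transcripts it was 0.55.

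H2AFY varied more between embryos than any other of the 6 genes, with a highest value 4.89 times the lowest. It (chromosome 7, 48390756 to 48472188 in control 1) measured 32.8, 7.54 and 6.71 FPKM in MAT2A-inhibited morulae, against 15.2, 18.3 and 24.1 FPKM in controls. MAT2A-inhibited morula 1 was the highest of all 6 embryos and the other treated embryos the lowest. These low embryos are the libraries with Y-linked transcripts, and the 4 embryos without them ran from 15.2 to 32.8 FPKM. All embryos with Y-linked transcripts were treated, so the presence of these transcripts and the treatment cannot be told apart for this pair. The log2 fold change was -0.61 ± 0.56 over all embryos (limma adjusted p = 0.834). It was 0.76 without MAT2A-inhibited morulae 2 and 3, and -1.29 without MAT2A-inhibited morula 1. The file gives macroH2A1 per gene, and its splice forms were not analysed here.

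**Figure D3:**
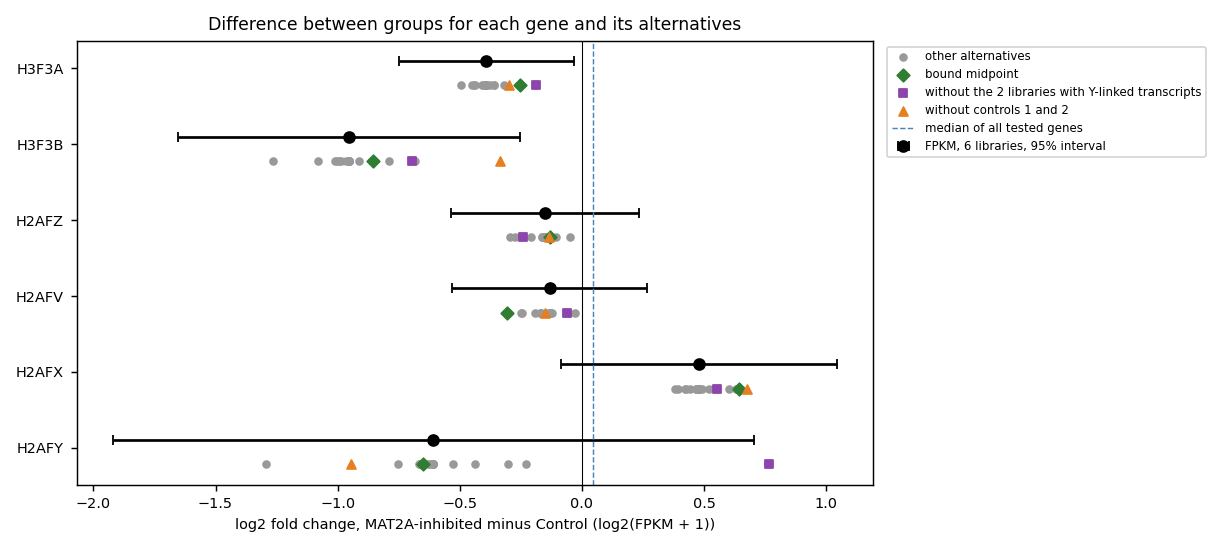
Log2 fold change, MAT2A-inhibited minus control, of each gene. Black points are the fit on FPKM over 6 libraries with its 95% interval, and the smaller marks below are the same value under each alternative. The dashed line is the median of all tested genes, 0.045. H3F3A, H3F3B, H2AFZ and H2AFV stay below 0 and H2AFX above 0 under every alternative drawn, while H2AFY turns to 0.76 without the libraries with Y-linked transcripts.

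The 4 H3.3 and H2A.Z genes were among the most abundant transcripts. Counted from the highest FPKM among 13185 genes, H3F3B ranked between 17 and 140 across embryos, H2AFZ between 44 and 85, H3F3A between 81 and 152, and H2AFV between 138 and 205. H2AFX ranked between 1635 and 2317 and H2AFY between 2329 and 4649. Within every embryo H3F3A was above H2AFV, H2AFV above H2AFX and H2AFX above H2AFY. The order at the top varied: H3F3B was above H2AFZ in controls 1 and 2, and H2AFZ was above H3F3B in the other 4 embryos. In controls the ranges of H3F3B and H2AFZ overlapped, and in MAT2A-inhibited morulae those of H3F3B and H3F3A did. No other neighbours in the order of mean FPKM overlapped within a group. The 6 genes together held 0.769%, 0.732% and 0.598% of all annotated FPKM in MAT2A-inhibited embryos and 1.001%, 1.12% and 0.796% in controls. These shares did not overlap, and most of the gap came from H3F3B.

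The deposited values of these genes carry an inconsistency between libraries. Cufflinks gave each FPKM with a lower and an upper confidence bound, yet the FPKM lay inside its own bounds in only 10 of the 36 rows of the 6 genes. Of all rows with 1 symbol, 8.08% to 10.4% per library lay outside their bounds. In 11 rows that keep the annotated symbol as identifier the FPKM was 1.16 to 1.36 times the midpoint of the bounds. In 21 of the 25 rows that Cufflinks had assembled itself it was 0.982 times the midpoint or more and at most equal to it after rounding, and in the other 4 it was 1.17 to 1.41 times. The offset was not particular to these genes. Among all rows with 1 symbol above 10 FPKM, the median ratio per library was 1.12 to 1.19 in annotated rows. In assembled rows it was 0.997 to 0.999. For H3F3A, 5 libraries held the annotated row and MAT2A-inhibited morula 2 the assembled one. For H2AFX, MAT2A-inhibited morulae 1 and 3 held the assembled row and the other 4 libraries the annotated one. Rows of both kinds thus stand within 1 comparison.

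**Figure D4:**
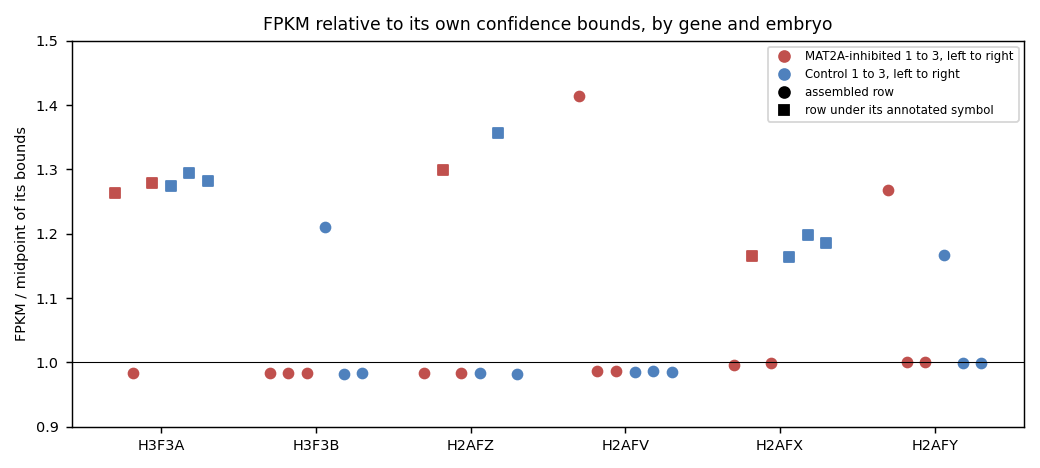
FPKM divided by the midpoint of its own confidence bounds, for each gene (x axis) and embryo, with MAT2A-inhibited morulae (red) left of controls (blue). Squares are rows under the annotated symbol and circles rows assembled by Cufflinks. Squares lie at 1.16 to 1.36, and most circles lie close to 1.

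Read from the midpoints of the bounds, a choice made after the data were seen, some of the spread moved. H2AFX measured 54.4, 49.9 and 43.2 FPKM in MAT2A-inhibited morulae and 29.2, 37.9 and 26.8 FPKM in controls, and the groups no longer overlapped. A pattern of this kind with the treated group higher held for 7.88% of tested genes. The H2AFX log2 fold change was 0.64 ± 0.23 (limma adjusted p = 0.762, unadjusted p = 0.0262). H2AFX is short and without introns in mammals, so with the whole locus of 1315 bases as its length these bounds stand for about 3863, 3053 and 3275 fragments in the MAT2A-inhibited embryos and 2167, 2659 and 2115 in controls. The bounds of H2AFX spanned 9.09% to 12.1% of their midpoint, less than the range between embryos of either group on that scale. Those of H2AFY spanned 15.1% to 23.7% and those of the other 4 genes 1.04% to 3.42%.

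On the midpoints H3F3A measured 1304, 1317 and 1072 FPKM in MAT2A-inhibited morulae and 1506, 1512 and 1372 FPKM in controls, and H3F3B measured 2066, 1809 and 1380 FPKM in MAT2A-inhibited embryos and 2874, 4869 and 2177 FPKM in controls. Both genes still had no overlap, a pattern with the treated group lower that held for 5.08% of tested genes on this scale. The H3F3A log2 fold change was smaller than on FPKM, at -0.25 (limma unadjusted p = 0.210), and that of H3F3B was -0.85. The high FPKM of H2AFZ in MAT2A-inhibited morula 2 was at 2219 by its midpoint, between 2253 and 2091 in the other treated embryos. H2AFZ averaged 2188 ± 85.2 FPKM by midpoint in MAT2A-inhibited embryos and 2412 ± 362.9 FPKM in controls, so the group with the narrower spread was the treated one on midpoints and the control one on FPKM. H2AFV held the row farthest from its bounds, MAT2A-inhibited morula 1, at 1.41 times the midpoint. By midpoint it was at 786.5, 1135 and 962.2 FPKM in the MAT2A-inhibited embryos and 1357, 1004 and 1192 FPKM in controls. The groups still overlapped, with a log2 fold change of -0.31 ± 0.22 (limma unadjusted p = 0.210).

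Genes that place, remove, modify or read histones, further histone genes and genes of histone mRNA processing were listed by function. All are called partners here, although not all act on the 6 variants. None of the 65 that could be tested passed limma in either direction or had an unadjusted p below 0.05. Of 90 listed genes, 20 had no row of 1 symbol in all 6 libraries, among them HIRA, ATRX, SRCAP and EP400, and were not analysed here. The median log2 fold change of the tested partners was 0.039, against 0.045 over all tested genes, and 35 were above 0 and 30 below. Over all tested genes 54.2% were above 0. The groups did not overlap for 4 partners that were higher (6.15%) and 3 that were lower (4.62%) in the treated group, against 8.27% and 5.18% of all tested genes. The 4 were BAZ1B, SSRP1, CENPA and CPSF2, and the 3 were VPS72, RBBP4 and CPSF3, where VPS72 and RBBP4 were named after their values were seen. Values for partners named below are log2 fold changes where no unit follows.

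Of the H3.3 deposition list 5 of 8 genes were tested, with 3 above 0 and 2 below and a median of 0.11. DAXX, the chaperone that works with ATRX at repeats, was at 9.77 ± 0.716 FPKM in MAT2A-inhibited morulae and 8.75 ± 2.18 FPKM in controls. ASF1A, which hands H3 to the deposition complexes, was at 223.5 ± 22.3 FPKM in MAT2A-inhibited embryos and 206.1 ± 14.2 FPKM in controls, and UBN2, of the HIRA complex, was at -0.35. For each of the 5 the groups overlapped, which does not show that their levels were alike.

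Of the H2A.Z exchange list 16 of 20 genes were tested, 9 above 0 and 7 below, with a median of 0.018. ANP32E, which removes H2A.Z from chromatin, measured 50.4, 51.1 and 60.6 FPKM in MAT2A-inhibited morulae and 54.5, 21.1 and 48.5 FPKM in controls. Its groups overlapped, and control 2 alone was low. ING3, of the TIP60 complex, and ACTR8, of the INO80 complex, were at -0.44 and 0.36. For H2AX damage signalling 10 of 13 genes were tested, 5 above and 5 below 0. BAZ1B, a kinase of H2AX, measured 5.57, 4.65 and 12.8 FPKM in MAT2A-inhibited morulae and 3.39, 3.83 and 3.90 FPKM in controls, without overlap (0.77, limma adjusted p = 0.760). ATM, a kinase of the same histone after breaks, was at -0.52 and TOPBP1 at -0.46.

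Among 14 tested general and replication-coupled chaperones 8 were above 0 and 6 below. SSRP1, a subunit of the FACT chaperone, measured 26.6, 23.4 and 20.5 FPKM in MAT2A-inhibited morulae and 13.5, 17.8 and 16.9 FPKM in controls, without overlap. HAT1, which acetylates new histone H4, was at 184.4 ± 29.98 FPKM in MAT2A-inhibited morulae and 282.2 ± 84.4 FPKM in controls (-0.58, limma adjusted p = 0.746). RBBP7, a partner of HAT1, was at -0.40, and CHAF1A, the large subunit of the replication chaperone CAF-1, was at -0.34.

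Of 9 listed other variants and linker histones 3 were tested, 2 above 0 and 1 below. None of them was lower in every MAT2A-inhibited morula than in any control, as H3F3B was. CENPA, the histone H3 variant of centromeres, measured 141.3, 115.3 and 136.2 FPKM in MAT2A-inhibited morulae and 104.5, 93.4 and 101.3 FPKM in controls. All treated embryos lay above all controls (0.38, limma adjusted p = 0.750, unadjusted p = 0.0744). A pattern without overlap and with the treated group higher held for 8.27% of tested genes. In its deposition list OIP5 and MIS18A were at -0.60 and -0.16. H2AFJ was at 43.1 ± 21.6 FPKM in MAT2A-inhibited morulae and 33.3 ± 10.6 FPKM in controls. The linker histone H1F0 was at 1.93 ± 0.785 FPKM in MAT2A-inhibited embryos and 2.70 ± 1.26 FPKM in controls. H2AFY2, which encodes macroH2A2, reached at most 1.74 FPKM in any embryo, and the oocyte linker histone H1FOO at most 0.183 FPKM.

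Replication-dependent histone genes were listed only where their symbol was already among the genes kept, so this list could lose none at that step. All 9 listed could be tested, 5 above 0 and 4 below. HIST1H2BD was at -0.63, HIST2H2BE at -0.27 and HIST1H1D at 0.75. HIST1H2BB and HIST2H2AC, named after their values were seen, were more abundant. HIST1H2BB was at 762.3 ± 336.8 FPKM in MAT2A-inhibited morulae and 884.3 ± 614.8 FPKM in controls. HIST2H2AC measured 1191, 4.59 and 1034 FPKM in MAT2A-inhibited embryos and 1941, 2648 and 6.65 FPKM in controls. Such mRNAs are captured in a polyA library only where they carry a tail, so these values do not stand for their full level. SLBP, which binds the stem-loop at their ends, was at 108.2 ± 21.7 FPKM in MAT2A-inhibited morulae and 113.5 ± 22.9 FPKM in controls. CPSF3, which cuts histone pre-mRNA, was at 37.7, 46.3 and 41.2 FPKM in MAT2A-inhibited embryos and 57.3, 62.7 and 47.1 FPKM in controls, without overlap (-0.40, limma adjusted p = 0.772). CPSF2, its partner in that complex, lay between 32.5 and 32.96 FPKM in MAT2A-inhibited embryos and between 26.7 and 30.3 FPKM in controls, also without overlap but higher (0.22), and ERI1 was at 0.17.

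**Figure D5:**
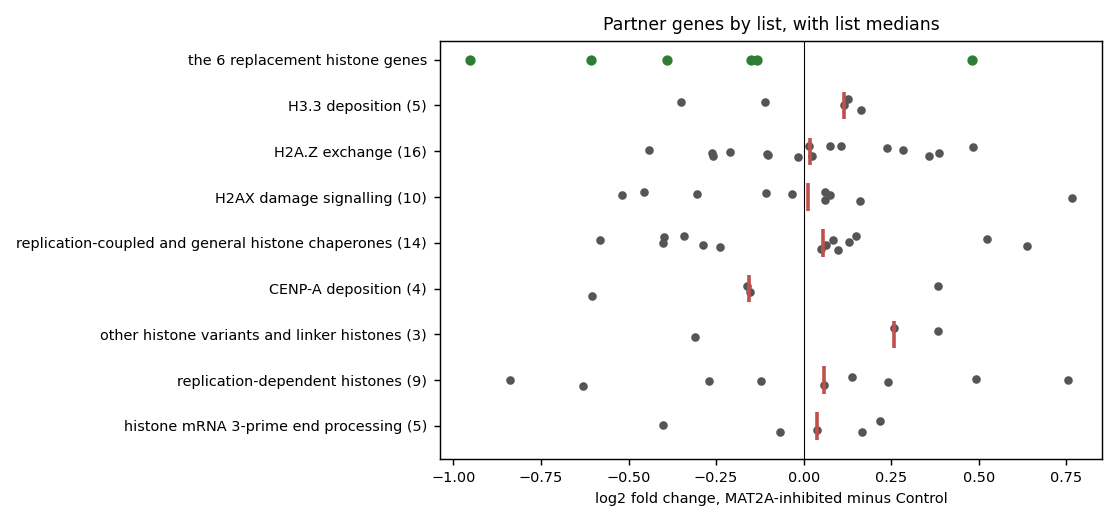
Log2 fold change, MAT2A-inhibited minus control, of each tested partner gene (grey points, with vertical jitter) by list, with the list median as a red bar and the number of tested genes in brackets. Green points are the 6 replacement histone genes. List medians lie between -0.16 and 0.26, and H3F3B, at -0.95, lies below every partner.

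The genes whose profile over the 6 embryos was most like each histone gene were named by Pearson correlation of log2(FPKM + 1) over 7319 genes, as a description. With 6 points and so many genes, values near 1 arise readily. For H3F3B they were MMACHC (0.995) and GGPS1 (0.989), and for H3F3A VPS41 (0.990) and KNSTRN (0.989). For H2AFZ they were MED21 (0.995) and CHIC2 (0.971), and for H2AFV the nuclear envelope genes EMD (0.990) and LEMD3 (0.984). H2AFX was matched by PCMT1 (0.988) and RPUSD4 (0.987), and H2AFY by MGME1 (0.986) and PPP1R21 (0.973). MMACHC, a cobalamin processing enzyme, measured 42.4, 38.6 and 28.4 FPKM in MAT2A-inhibited morulae and 63.3, 79.5 and 44.6 FPKM in controls, and so followed the order of H3F3B in every embryo.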

How the data were processed

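The submitters' processing notes name the build bosTau8 with TopHat2 2.0.14 and Cufflinks 2.2.1. Settings and annotation are not stated. The authors deposited FPKM values and their bounds, also in FPKM, in 1 table per library, with no recorded scaling between libraries. FPKM of rows with 1 symbol were summed. Symbols in a merged locus or with a status other than OK, 110 in all, were left out. Depth was recovered from unannotated loci between 100 and 300 bases long, whose lower bounds are multiples of 1 fragment (98.7% to 99.4% whole, tolerance 0.05). This held with locus starts counted from 0 (91.8% to 94.9% otherwise), so starts are printed 1-based. No 2 libraries shared equal values. Genes that reached 1 FPKM in 3 or more libraries were fitted as log2(FPKM + 1) with limma 3.58.1 (R 4.3.3, mean-variance trend), two-sided, with Benjamini-Hochberg adjustment, a step also tested on simulated data. The design took no block. The genes named were the 6 members, fixed partners, from each partner list the 3 tested genes of smallest p, and the 2 most correlated genes. POU5F1 was named as the check of the tissue and MAT2A as the inhibited enzyme. No rule set which other listed markers, among them SOX2, NANOG, DPPA3 and KRT8, were named. Partners marked as named after their values were seen were added. Members and lists were chosen with earlier results of these data known. Alternatives changed scaling, pseudocount, filter, variance model, block, rows per symbol or libraries; bound midpoints and leaving out controls 1 and 2 were added after the data were seen.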

Additional observations from a re-analysis of the deposited data

How the results depend on the processing

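The direction of H3F3A, H3F3B, H2AFZ, H2AFV and H2AFX held under all 19 alternatives, and no gene of the 6 passed under any. Alternatives that changed only the filter, the mean-variance trend, the block or the rows per symbol gave the same fold changes as the main fit. They could not move the direction of these genes. H2AFY turned to 0.76 (log2 fold change) without the libraries with Y-linked transcripts. The number of all genes past the threshold, 3, was 1 with no filter on low values, with a mean of at least 5 FPKM, with the replicate block and with bound midpoints, 5 with array weights and 0 without the libraries with Y-linked transcripts. Leaving out each library in turn gave 0 to 8. It was 0 without any 1 of MAT2A-inhibited morulae 1 to 3 and 8 without control 3. Leaving out 1 library, the log2 fold change ran from -1.26 to -0.68 for H3F3B, -0.49 to -0.32 for H3F3A and 0.38 to 0.63 for H2AFX. It ran from -0.29 to -0.051 for H2AFZ, -0.25 to -0.029 for H2AFV and -1.29 to -0.23 for H2AFY. The cause was not tested. The replicate numbers were not taken to pair the embryos, as the labels state no pairing. Deviations of same-numbered embryos correlated at 0.046, 0.10 and 0.19, all above 0, and 4 of 6 other pairs were below 0. Deviations were taken from the mean of each group, so pairs above 0 push others below it. These correlations therefore cannot decide whether the embryos were paired. MAT2A-inhibited morulae 2 and 3 correlated best with their own number and morula 1 with control 2. The other scalings moved the median of all genes by less than 0.1 on the log2 scale. The deposited bounds concern the value of each library alone and not the spread between embryos. They spanned at most 3.42% of their midpoint for the H3.3 and H2A.Z genes, 12.1% for H2AFX and 23.7% for H2AFY.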
